A study of Homo sapiens with 28 samples.

Results

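NF-kappaB factors, regulators and targets were followed here as 34 listed genes, found by gene symbol in the deposited RNA tables. Of these, 33 had a row among the 23533 rows of those tables, and TNIP1 was not analysed here at the RNA level. By role they comprised 5 Rel subunits, 5 IkB inhibitors and IkB-like cofactors, 3 negative regulators of ubiquitin signalling with RNA values, 7 kinases and kinase-complex members, 5 TRAF and cIAP adaptors and 8 targets. The cells were EPC2, an established line of human esophageal epithelial cells, seeded dense in KSFM medium and treated for 6 h. The 4 groups received both agents, IL-13 alone at 100 ng/ml, vitamin D alone at 100 nM, or neither. IL-13 is a type 2 cytokine whose signal is carried by the factor STAT6, and vitamin D binds its own nuclear receptor, VDR. The form of vitamin D is not given in the labels.

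RNA came from 3 samples per group, 12 in all, and the tables hold 1 RPKM value per group (reads per kilobase of transcript, scaled to the reads of the library), so no spread between samples can be shown. Chromatin immunoprecipitation with sequencing had 1 library per condition: H3K27ac, H3K9ac and H3K4me3 in all 4 groups, STAT6 with IL-13 and untreated, and VDR with vitamin D and untreated. Of 11 epithelial markers, 10 were at 1 RPKM or more in every group. Of 10 leukocyte markers, 2 were at that level in every group, CD68 at 48.1 to 60.5 RPKM and CD14. PTPRC, CD3E and LYZ were below 0.1 RPKM throughout. The summed leukocyte markers were 273 RPKM with both, 52.4 with IL-13, 193 with vitamin D and 54.0 untreated, of which CD14, a Toll-like receptor co-receptor gene, made up 216, 3.67, 132 and 2.62 in the same groups; the part of this list in the vitamin D results was not tested. Of 10 fibroblast markers 2, and of 7 endothelial markers at most 1, were at 1 RPKM or more in any group. The 2 fibroblast markers were VIM, at 96.7 to 105 RPKM, and COL1A1, at 5.84 to 15.2 RPKM. In bulk RNA, fewer cells of a type and less RNA per cell cannot be told apart.

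NF-kappaB is a dimer of Rel proteins that IkB proteins hold in the cytoplasm. Receptors of the TNF, IL-1 and Toll-like families assemble TRAF and cIAP adaptors, ubiquitin chains and the IKK kinase complex, which marks IkB for destruction and frees the dimer. A second, non-canonical branch runs through the kinase NIK, encoded by MAP3K14, which TRAF3, TRAF2 and the cIAP proteins keep low, and which leads to processing of the NFKB2 product. Many of the inhibitors (NFKBIA, TNFAIP3) and adaptors (BIRC3, TRAF1) are themselves targets of NF-kappaB.

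The promoters of these genes were searched for the DNA motif that Rel dimers bind. RefSeq sequences (GRCh38.p14) of the 250 bases before a gene's start were matched for 29 of the 34 genes. The table did not give RELB, NFKBIE, IKBKB, RIPK2 or IER3. A kappaB motif spelled as GGG, any 2 bases, then TTTCC, searched on both strands, was in at least 1 promoter of 11 of the 29 genes and in 1.73% of 34788 distinct promoter windows, or 2.12% of 27305 gene symbols. The broader kappaB consensus was spelled as GGG, A or G, any 2 bases, 2 bases that are C or T, then CC. It leaves out spellings of the first motif with C or T after the GGG. This consensus was in promoters of 13 of the 29 genes, adding CD83 and CFLAR, and in 9.95% of all windows, or 11.8% of gene symbols. A match is a description of letters and not of binding. The matched stretches are shown because they show the motif in the genes that held the first spelling, each read 5′ to 3′ on the gene's strand with the match in capitals and 10 bases on either side.
NFKB1, chr4:102501300-102501329: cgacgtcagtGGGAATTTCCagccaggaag
NFKB2, first start, chr10:102394490-102394519: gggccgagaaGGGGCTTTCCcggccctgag
NFKB2, second start, chr10:102395674-102395703: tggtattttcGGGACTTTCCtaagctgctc
REL, chr2:60881518-60881547: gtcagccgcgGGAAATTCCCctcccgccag
NFKBIA, minus strand, chr14:35404811-35404840: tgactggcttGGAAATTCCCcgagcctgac
NFKBIB, chr19:38899931-38899960: gggcgtggtgGGGAATTTCCcgcagggcgg
NFKBIZ, chr3:101827757-101827786: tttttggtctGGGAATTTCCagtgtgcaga
TNFAIP3, 2 matches, chr6:137867182-137867223: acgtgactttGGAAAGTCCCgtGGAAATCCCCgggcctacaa
TNIP1, minus strand, chr5:151081057-151081086: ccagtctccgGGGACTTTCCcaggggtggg
CYLD, chr16:50741887-50741916: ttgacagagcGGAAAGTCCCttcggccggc
BIRC3, chr11:102317275-102317304: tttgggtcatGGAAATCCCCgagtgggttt
TRAF3, chr14:102777406-102777435: cgggcgcgccGGGGATTTCCagcgcgcgag

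NF-kappaB genes did not move as a block with either agent. With both agents 5 of the 33 were higher and 14 lower than untreated, where a gene is called at an adjusted p under 0.05 in the authors' deposited table. Of the 15971 genes tested in that comparison, 16% were higher and 15.7% lower. With IL-13 alone 4 members were higher and 14 lower in the authors' deposited table, against 12.3% higher and 14% lower of all 15172 genes. With vitamin D alone 10 were higher and 13 lower in the authors' deposited table, against 17.5% and 15.1% of all 15177 genes. The members' median log2 fold change was -0.13 with both, -0.06 with IL-13 and -0.04 with vitamin D in the authors' deposited table, where the median of all genes tested was within 0.01 of 0. Most changes were small. Members that were called and moved by at least 1.5-fold numbered 4 with both (9.12% of all genes), 1 with IL-13 (4.16%) and 2 with vitamin D (5.98%) in the authors' deposited table. NFKBIB, TRAF2 and TNF were called in none of these 3 comparisons, which share the untreated samples.

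**Figure D1:**
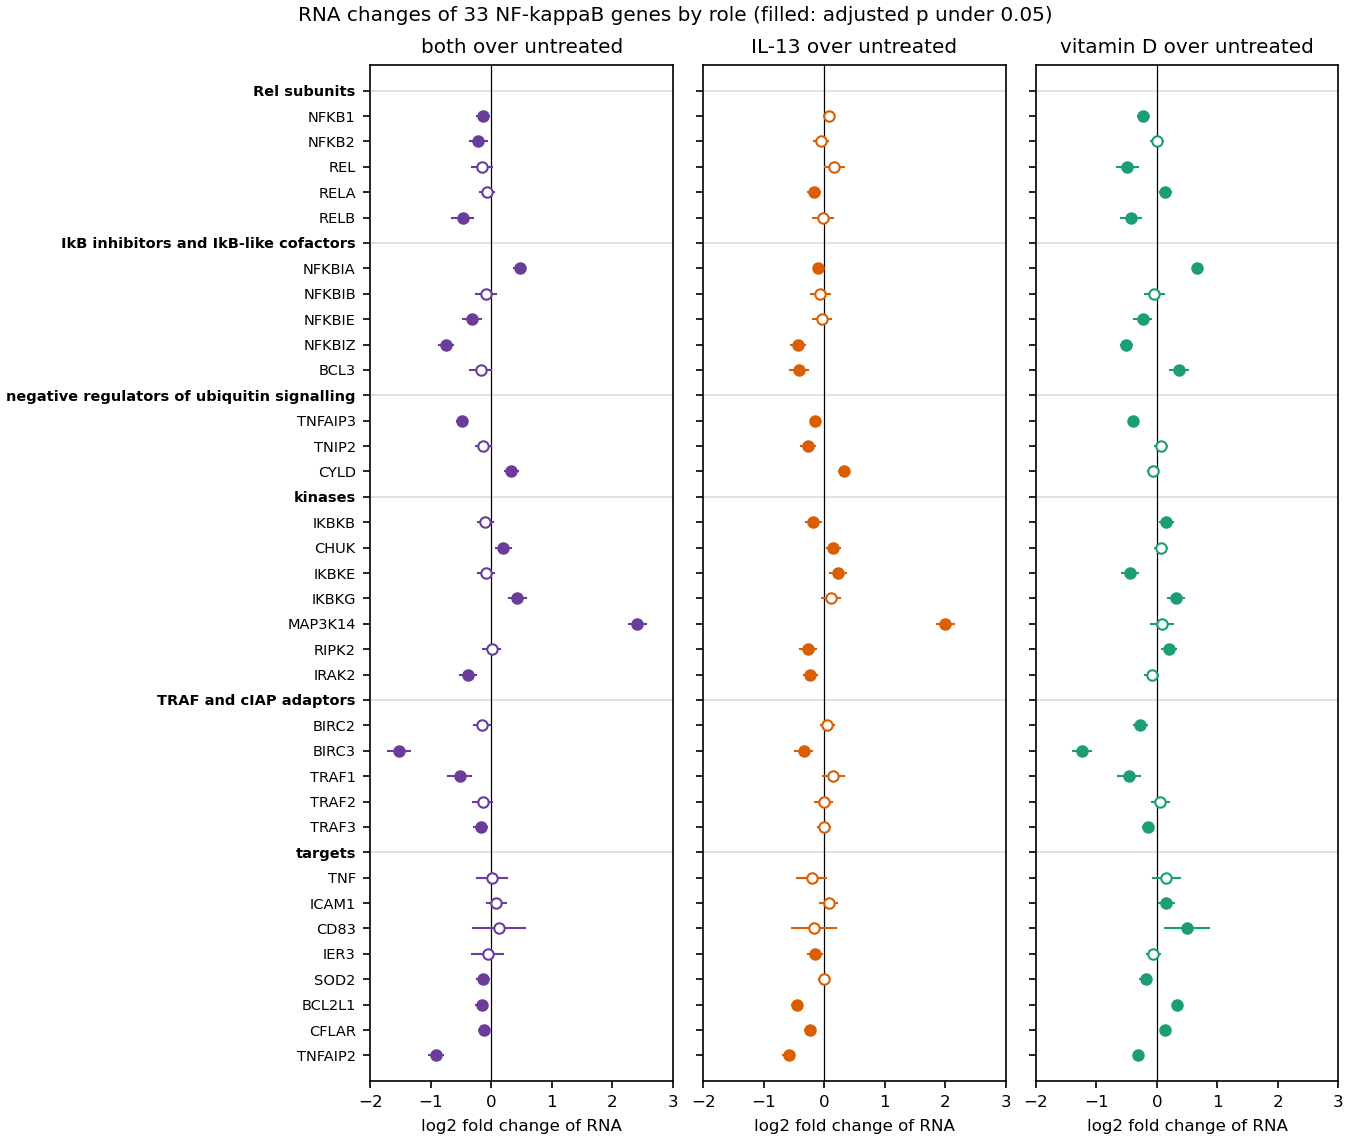
Log2 fold change of RNA (horizontal axis) for the 33 NF-kappaB genes, grouped by role, with both, IL-13 or vitamin D over untreated. Points are the authors' deposited values, bars are 95% intervals derived from the deposited p-values, and filled points have an adjusted p under 0.05. MAP3K14 stands far to the right with both (2.41) and IL-13 (2.0), and BIRC3 far to the left with both (-1.53) and vitamin D (-1.24).

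MAP3K14, the gene of the NIK kinase, carried the largest change of the set. It lies on the minus strand at chr17:43340488-43394414 (hg19). Its level was 9.71 RPKM with both, 7.64 RPKM with IL-13, 1.83 RPKM with vitamin D and 1.78 RPKM untreated. Both groups given IL-13 were high and both groups without it were low. The log2 fold change was 2.41 ± 0.07 with both (SE derived from the p-value; adjusted p = 2.59e-251) and 2.0 ± 0.07 with IL-13 (adjusted p = 3.35e-162) in the authors' deposited table. By size the rise with IL-13 ranked 32 of 15171 genes. With vitamin D alone it was 0.09 ± 0.09 (adjusted p = 0.514) in the authors' deposited table. Among cells given vitamin D, both over vitamin D alone gave 2.31 ± 0.07 (adjusted p = 1.06e-247) in the authors' deposited table. The step from IL-13 alone to both was 0.41 ± 0.10, by a z test on the difference of 2 of the authors' deposited fold changes (Benjamini-Hochberg adjusted p = 0.000757). The IL-13 effect with vitamin D minus that without it was 0.31 ± 0.10, and missed the threshold in a z test on the authors' deposited values (unadjusted p = 0.0022, adjusted p = 0.077).

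MAP3K14 also had the STAT6 region with the highest fold enrichment among the members. With IL-13, 3 of the 33 members had a STAT6 region assigned by the authors, or 4 of 34 with TNIP1, against 9.87% of all genes in the tables and 12.4% of those at 1 RPKM or more in at least 1 group. Untreated, none of the members had one (0.888% of all genes). MAP3K14 had 2 regions with IL-13. One, at chr17:43395947-43396964 (hg19), had its summit 2025 bp upstream of the transcript start that the peak files give, from which all distances here are measured, and a fold enrichment of 12.1, rank 328 of 4802 STAT6 regions. The other, at chr17:43389312-43389855 (hg19), lay in an intron with its summit 4843 bp into the gene and a fold enrichment of 7.91, rank 824. Fold enrichment and its rank are the authors' peak caller's values within that list. TNIP1, which encodes a partner of the A20 ubiquitin editor, had a region 12595 bp upstream with a fold enrichment of 9.14. The remaining regions were far from their genes, 115395 bp from the start of SOD2 and 141946 and 444370 bp upstream of RIPK2, with fold enrichments of 4.20 to 4.94. None of the 6 regions overlapped a STAT6 region of the untreated library.

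At these STAT6 regions H3K27ac, a mark of active promoters and enhancers, was read as the tallest summit within 500 bp of the region. The pileup at the upstream MAP3K14 region was 33 with both, 32 with IL-13, 25 with vitamin D and 32 untreated. The untreated H3K27ac library was deeper than the others: the median tallest summit per gene was 19 with both, 18 with IL-13, 23 with vitamin D and 42 untreated. Divided by these medians, H3K27ac there was 2.28-fold the untreated level with both (95% interval 1.36 to 3.83, exact binomial, counting error only) and 2.33-fold with IL-13 (1.38 to 3.93). With vitamin D it was 1.43-fold (0.811 to 2.48). The intron region had pileups of 18 with both, 21 with IL-13, 11 with vitamin D and 18 untreated, or 2.21-fold (1.08 to 4.50), 2.72-fold (1.38 to 5.42) and 1.12-fold (0.476 to 2.49) over untreated after scaling. Among all 2129 STAT6 regions with an H3K27ac summit in each library, 24.3% were at least 1.5-fold higher with both and 21.3% with IL-13. These folds over untreated rest on the scaling of 1 deeper library. Set against the vitamin D library, the upstream region was 1.60-fold with both (0.922 to 2.80) and 1.64-fold with IL-13 (0.939 to 2.88), and the intron region was 1.98-fold with both (0.886 to 4.64) and 2.44-fold with IL-13 (1.12 to 5.60).

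**Figure D2:**
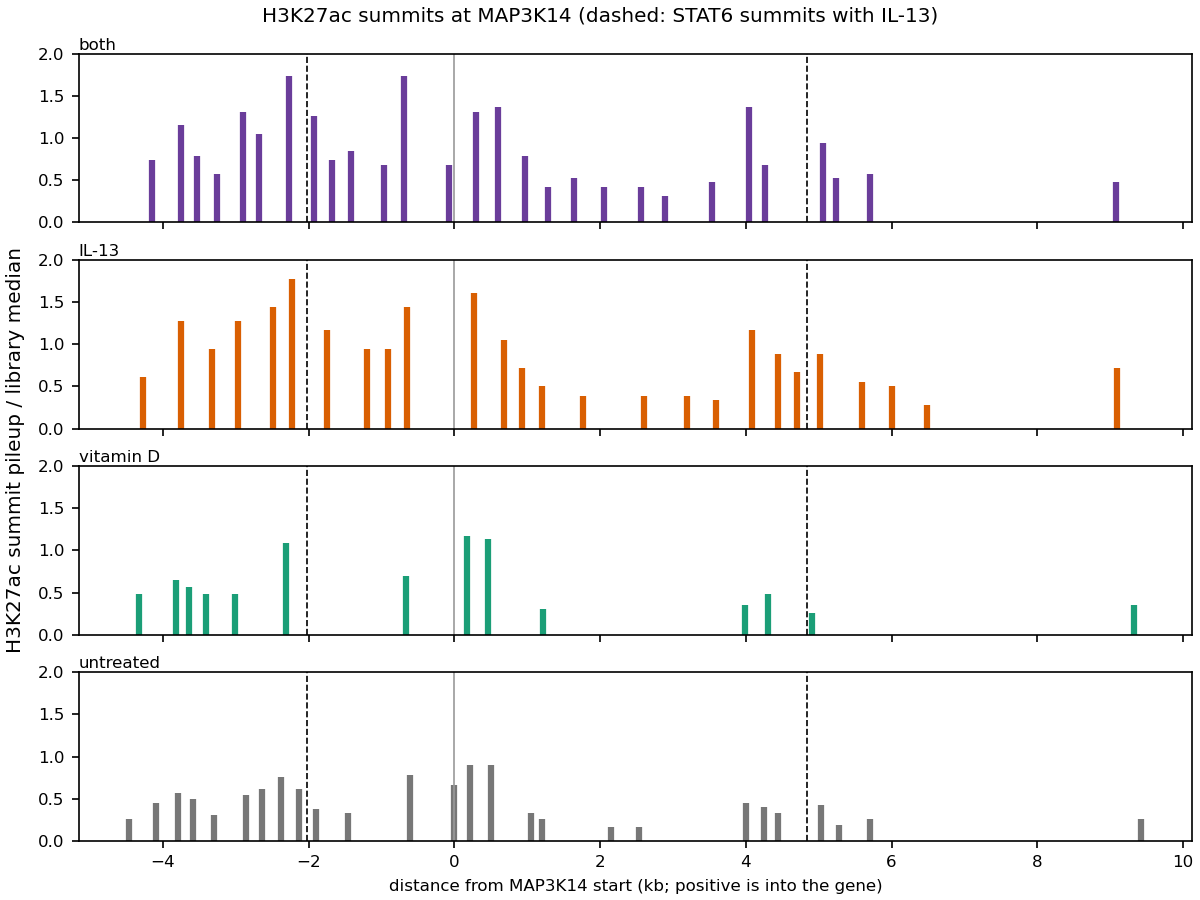
H3K27ac summits around MAP3K14 in the 4 libraries: distance from the gene's start in kb (horizontal; positive values run into the gene) against summit pileup divided by the library median (vertical). Dashed lines mark the STAT6 summits with IL-13 and the grey line the start. The tallest bars reach 1.74 with both and 1.78 with IL-13, against 1.17 with vitamin D and 0.905 untreated.

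The MAP3K14 promoter itself held neither this kappaB motif nor a STAT motif (TTC and GAA with any 4 bases between) on either strand. The STAT motif was in 5.36% of all promoter windows and in those of CD83, CFLAR and IKBKG among the members. The window before the single RefSeq start is shown for contrast with the matched promoters, at chr17:45317021-45317270 (GRCh38.p14, minus strand, all in lower case since no match was found).
MAP3K14: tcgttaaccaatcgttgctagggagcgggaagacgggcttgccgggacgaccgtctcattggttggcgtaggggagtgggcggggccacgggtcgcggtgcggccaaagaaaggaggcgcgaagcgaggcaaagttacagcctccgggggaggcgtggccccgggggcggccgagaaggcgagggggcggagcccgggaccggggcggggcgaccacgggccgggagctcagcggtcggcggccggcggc

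The Rel subunits each moved by less than 1.5-fold. Of the 5 genes, 0 were higher and 3 lower with both, 0 and 1 with IL-13, and 1 and 3 with vitamin D in the authors' deposited table, beside 16% and 15.7%, 12.3% and 14%, and 17.5% and 15.1% of all genes in the same order. RELB, the subunit of the non-canonical branch, had 4.37 RPKM with both, 6.14 with IL-13, 4.35 with vitamin D and 6.14 untreated. The groups with vitamin D were low and those without it equal. Its log2 fold change was -0.47 ± 0.09 with both (adjusted p = 1.2e-06) and -0.43 ± 0.08 with vitamin D (adjusted p = 3.55e-06) in the authors' deposited table, where IL-13 alone gave -0.02 ± 0.08 (adjusted p = 0.915). REL, which encodes c-Rel, had 4.23 RPKM with both, 5.40 with IL-13, 3.19 with vitamin D and 4.74 untreated. REL fell by 0.49 on the log2 scale with vitamin D (adjusted p = 2.65e-07) in the authors' deposited table, and among cells given vitamin D it was 0.34 higher with both than with vitamin D alone (adjusted p = 0.00168). NFKB1, which encodes the p105 precursor of p50, fell by 0.24 with vitamin D and by 0.14 with both in the authors' deposited table. NFKB2, which encodes p100, fell by 0.21 with both (adjusted p = 0.0105) in the authors' deposited table, and gave 0.00 with vitamin D. RELA, the most abundant subunit at 27.3 RPKM untreated, was 0.16 lower with IL-13 and 0.13 higher with vitamin D in the authors' deposited table.

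Among the IkB inhibitors and cofactors, NFKBIA and NFKBIZ stood out with vitamin D. NFKBIA, the gene of IkB-alpha, was the most highly expressed member per length, with 121 RPKM with both, 82.8 with IL-13, 133 with vitamin D and 87.5 untreated. Both groups given vitamin D were above both groups without it. The log2 fold change was 0.47 ± 0.05 with both (adjusted p = 7.9e-24), -0.10 ± 0.04 with IL-13 (adjusted p = 0.0451) and 0.66 ± 0.03 with vitamin D (adjusted p = 5.59e-93) in the authors' deposited table. Against IL-13 alone, both gave 0.57 ± 0.06 (z test on the authors' deposited fold changes, Benjamini-Hochberg adjusted p = 9.58e-20). NFKBIZ, which encodes the nuclear cofactor IkB-zeta, had 5.89 RPKM with both, 7.45 with IL-13, 6.76 with vitamin D and 10 untreated, so that every treated group was below untreated. It fell by 0.75 with both (adjusted p = 3.08e-32), by 0.43 with IL-13 and by 0.50 with vitamin D in the authors' deposited table. BCL3, an IkB-like coactivator of p50 and p52 dimers, had 7.12 RPKM with both, 6.10 with IL-13, 10.1 with vitamin D and 8.12 untreated. In the authors' deposited table BCL3 fell by 0.42 with IL-13 (adjusted p = 1.07e-06) and rose by 0.36 with vitamin D (adjusted p = 1.46e-05), and with both it gave -0.18 (adjusted p = 0.123). NFKBIE, which encodes IkB-epsilon, fell by 0.32 with both and by 0.24 with vitamin D in the authors' deposited table. NFKBIB gave -0.09, -0.06 and -0.04 with both, IL-13 and vitamin D in the authors' deposited table and passed in none.

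The negative regulators and kinases mixed rises and falls. TNFAIP3, the gene of the A20 ubiquitin editor, had 27.2 RPKM with both, 35.1 with IL-13, 28.2 with vitamin D and 38.4 untreated. It fell by 0.49 with both (adjusted p = 1.05e-32), by 0.15 with IL-13 and by 0.39 with vitamin D (adjusted p = 3.8e-33) in the authors' deposited table. CYLD, a deubiquitinase that restrains the pathway, had 9.04 RPKM with both, 9.18 with IL-13, 6.58 with vitamin D and 7.20 untreated, and rose by 0.33 with both (adjusted p = 1.69e-08) and by 0.33 with IL-13 (adjusted p = 4.52e-12) in the authors' deposited table. With vitamin D, CYLD gave -0.07 (adjusted p = 0.199) in the authors' deposited table. TNIP2, an A20-binding protein gene, fell by 0.27 with IL-13 alone in the authors' deposited table.

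The IKK complex subunits each moved by less than 1.5-fold. CHUK (IKK-alpha) rose by 0.20 with both and by 0.15 with IL-13, and IKBKB (IKK-beta) fell by 0.18 with IL-13 and rose by 0.16 with vitamin D in the authors' deposited table. IKBKG, which encodes the scaffold NEMO, rose by 0.42 with both (adjusted p = 2.86e-08) and by 0.32 with vitamin D (adjusted p = 5.73e-05) in the authors' deposited table. Its counts are uncertain, since a near-identical pseudogene copy can share its reads. IKBKE, the IKK-related kinase gene, had 5.68 RPKM with both, 7.23 with IL-13, 4.22 with vitamin D and 6.03 untreated; it rose by 0.23 with IL-13 (adjusted p = 0.00367) and fell by 0.45 with vitamin D (adjusted p = 1.97e-10) in the authors' deposited table. RIPK2, the kinase below NOD receptors, fell by 0.27 with IL-13 and rose by 0.20 with vitamin D in the authors' deposited table. IRAK2, a kinase of the IL-1 and Toll-like receptor branch, fell by 0.39 with both and by 0.23 with IL-13 in the authors' deposited table.

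**Figure D3:**
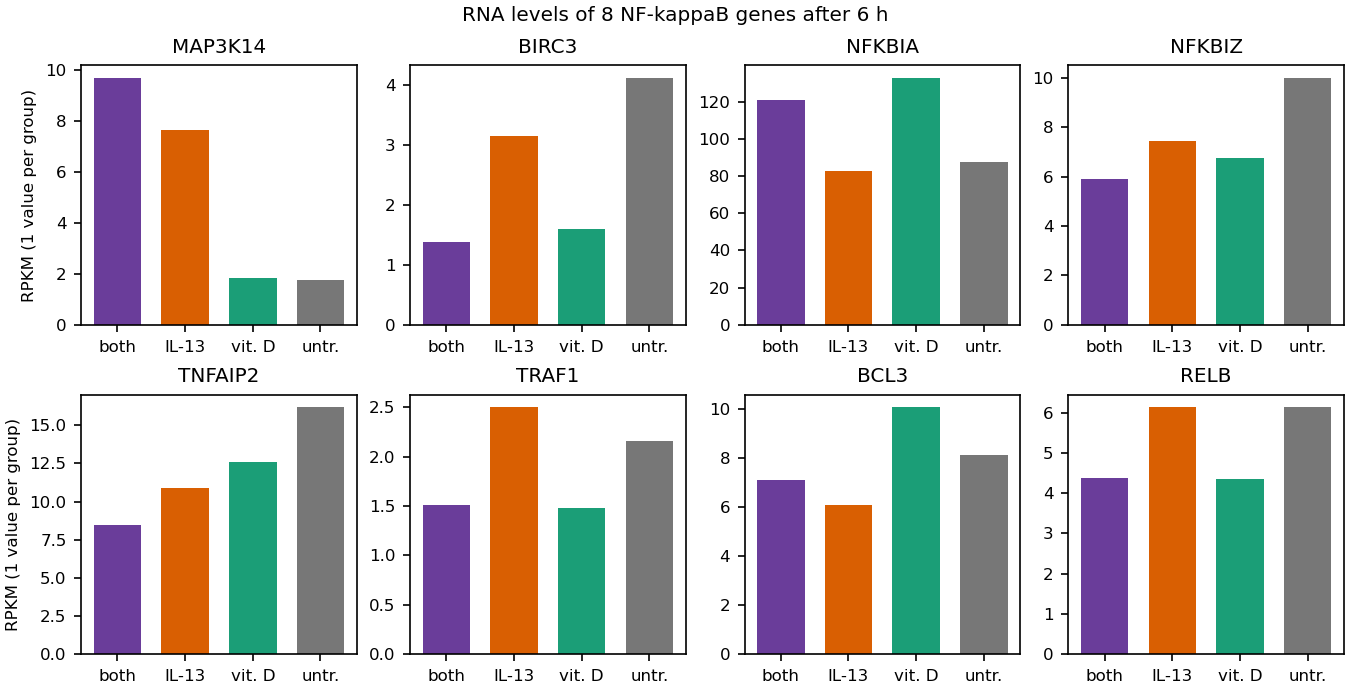
RPKM (vertical axis, from 0, 1 deposited value per group and so no error bar) of 8 NF-kappaB genes with both, IL-13, vitamin D and untreated. MAP3K14 is high in the 2 groups given IL-13. BIRC3, TRAF1 and RELB are low in the 2 groups given vitamin D, and NFKBIA is high there.

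BIRC3 had the largest fall. It encodes cIAP2, a ubiquitin ligase that works with TRAF2, and lies at chr11:102188181-102210135 (hg19). Its level was 1.38 RPKM with both, 3.14 with IL-13, 1.60 with vitamin D and 4.13 untreated. Both groups given vitamin D were low, and both groups without it were higher. The log2 fold change was -1.53 ± 0.10 with both (adjusted p = 2.09e-54), -0.34 ± 0.07 with IL-13 (adjusted p = 1.66e-05) and -1.24 ± 0.07 with vitamin D (adjusted p = 7.71e-61) in the authors' deposited table. The fall with vitamin D ranked 38 from the lowest of 15176 genes. Against IL-13 alone, both gave -1.19 ± 0.12 (z test on the authors' deposited fold changes, Benjamini-Hochberg adjusted p = 1.75e-21). The neighbouring paralog BIRC2, which encodes cIAP1 and lies at chr11:102218105-102249401 (hg19), fell by 0.27 with vitamin D (adjusted p = 8.13e-06) in the authors' deposited table. BIRC2 had 16.0 RPKM with both, 18.9 with IL-13, 14.8 with vitamin D and 18.3 untreated.

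TRAF1, an adaptor that pairs with TRAF2, had 1.51 RPKM with both, 2.50 with IL-13, 1.48 with vitamin D and 2.16 untreated. It fell by 0.52 with both (adjusted p = 5.05e-07) and by 0.45 with vitamin D (adjusted p = 5.18e-06) in the authors' deposited table, and was 0.67 ± 0.13 lower with both than with IL-13 alone (log2 -0.67; z test on the authors' deposited fold changes, Benjamini-Hochberg adjusted p = 3.35e-06). TRAF3, which brings NIK to the cIAP ligases, fell by 0.18 with both and by 0.15 with vitamin D in the authors' deposited table. TRAF2 gave -0.15, -0.01 and 0.05 with both, IL-13 and vitamin D in the authors' deposited table, with adjusted p of 0.185, 0.952 and 0.637. Of the 5 adaptors, 0 rose and 4 fell with vitamin D, and 0 rose and 1 fell with IL-13 in the authors' deposited table, beside 17.5% and 15.1% of all genes with vitamin D and 12.3% and 14% with IL-13.

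Among the 8 targets, TNFAIP2 moved furthest. TNFAIP2, which encodes the exocyst-related protein M-Sec and was first found as a TNF-induced gene, had 8.47 RPKM with both, 10.9 with IL-13, 12.6 with vitamin D and 16.2 untreated. Every treated group was below untreated, and the level with both was the lowest. It fell by 0.92 with both (adjusted p = 7.13e-58), by 0.58 with IL-13 (adjusted p = 3.06e-33) and by 0.31 with vitamin D (adjusted p = 4.21e-13) in the authors' deposited table. BCL2L1, the gene of the survival protein BCL-XL, had 51.1 RPKM with both, 42.5 with IL-13, 69.8 with vitamin D and 57.5 untreated. BCL2L1 fell by 0.45 with IL-13 (adjusted p = 2.57e-27) and rose by 0.34 with vitamin D (adjusted p = 1.77e-21) in the authors' deposited table. CFLAR, which encodes the caspase-8 inhibitor c-FLIP, fell by 0.23 with IL-13 and rose by 0.13 with vitamin D in the authors' deposited table.

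The remaining targets were the adhesion, antioxidant, surface, survival and cytokine genes ICAM1, SOD2, CD83, IER3 and TNF. The adhesion molecule gene ICAM1 had 5.22, 5.27, 5.31 and 4.94 RPKM with both, with IL-13, with vitamin D and untreated, and rose by 0.16 with vitamin D (adjusted p = 0.0428) in the authors' deposited table. SOD2, the mitochondrial superoxide dismutase gene, fell by 0.18 with vitamin D and by 0.13 with both in the authors' deposited table. CD83 was the lowest member, at 0.436 RPKM with both, 0.340 with IL-13, 0.597 with vitamin D and 0.395 untreated, and rose by 0.50 ± 0.19 with vitamin D (adjusted p = 0.0259) in the authors' deposited table. IER3, an immediate early survival gene, fell by 0.15 with IL-13 (adjusted p = 0.0295) in the authors' deposited table. TNF was near 2 RPKM throughout, at 2.44 with both, 2.10 with IL-13, 2.63 with vitamin D and 2.44 untreated. The rows of TNF and IER3 name the alternate haplotype 6_ssto_hap7 of chromosome 6. The TNF start given with that name, 31543344, is also the start from which its VDR region on chromosome 6 was measured. Where the reads of these 2 genes were counted is therefore not known.

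Between cells given both and cells given 1 agent, further members differed. Over vitamin D alone, 4 members were higher and 14 lower with both in the authors' deposited table, against 16.4% higher and 16.9% lower of 14859 genes. MAP3K14, CYLD, IKBKE and REL were the 4 higher ones; TNFAIP2 at -0.60 (adjusted p = 9.65e-25), BCL3 at -0.52 and BCL2L1 at -0.48 fell furthest in the authors' deposited table. Over IL-13 alone, 5 were higher and 10 lower with both by the z test, against 8.44% and 7.13% of 14734 genes. NFKBIA, MAP3K14, IKBKG, BCL2L1 (0.29, adjusted p = 8.44e-05) and RIPK2 were the 5 higher, and BIRC3, TRAF1 and RELB (-0.45, adjusted p = 0.00223) had the greatest falls in that test on the authors' deposited fold changes. The IL-13 effect in the presence of vitamin D minus that in its absence was called for 0 members by the z test with Benjamini-Hochberg adjustment, against 2.42% of all genes. The unadjusted p of that z test was under 0.05 for 2 of 33 members, MAP3K14 and NFKBIZ, and no share of all genes was taken at that threshold. The members' differences ran from -0.20 to 0.31 on the log2 scale, with a median SE of 0.09 and a largest of 0.26, so that small differences were not detectable.

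VDR regions were more frequent than STAT6 regions. With vitamin D, 14 of the 33 members had a VDR region assigned by the authors, or 15 of 34 with TNIP1, against 23.6% of all genes and 31.6% of those at 1 RPKM or more in at least 1 group. Untreated, 4 members had one (6.45% of all genes): NFKBIA, IKBKG, IRAK2 and BCL2L1. The 31 regions with vitamin D comprised 8 at promoters, 2 in exons, 12 in introns, 1 upstream and 8 intergenic, and 5 overlapped a region of the untreated library. Pileups of the vitamin D library had been scaled and were not compared between the VDR libraries. Fold enrichments here are the authors' values within the vitamin D list.

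NFKBIA had the most VDR regions of any member, 5 with vitamin D. Their summits lay 124 bp upstream of the start (fold enrichment 15.5), 960 and 2372 bp into the gene (7.01 and 13.0), and 67970 and 72643 bp beyond the start in the direction of transcription (22.1 and 4.48). The first was at chr14:35873918-35874336 (hg19). The regions 2372 and 67970 bp from the start overlapped untreated ones. H3K27ac at the site 2372 bp into the gene had a pileup of 21 with both, 12 with IL-13, 30 with vitamin D and 25 untreated. Over untreated and scaled by library medians this was 1.86-fold with both (0.988 to 3.46), 1.12-fold with IL-13 (0.513 to 2.31) and 2.19-fold with vitamin D (1.25 to 3.89). It had the highest vitamin D value of the 5 NFKBIA regions, the others lying between 0.974-fold and 1.38-fold. Over the members, 21 of the 31 VDR regions had an H3K27ac summit in all 4 libraries. Of these, 4 were at least 1.5-fold higher with both and 4 with vitamin D, against 11.1% and 14.4% of all 5146 such regions. Among the 4 with both was the NFKBIA region 960 bp into the gene, at 2.21-fold. Its 500 bp margin took in the promoter summit of the library with both, 308 bp into the gene. The promoter summits of the other libraries, at 220 to 248 bp, fell outside it. At the region 124 bp upstream, where all of these summits were read, the fold with both was 1.23. Of the 25 VDR regions with a summit in the vitamin D and untreated libraries, 8 were at least 1.5-fold higher. In 4 of the 25 the counting interval left out 1. No share over all VDR regions was taken under that looser rule, so 8 of 25 has no background here. The regions it adds had low pileups, from 8 to 12 with vitamin D and from 7 to 11 untreated. The promoter window of NFKBIA is shown because it holds the kappaB match beside a gene with a VDR region at its promoter, at chr14:35404750-35404999 (GRCh38.p14, minus strand, match in capitals). No window of a member held the DR3 consensus of VDR, which was in 0.0661% of all windows.
NFKBIA: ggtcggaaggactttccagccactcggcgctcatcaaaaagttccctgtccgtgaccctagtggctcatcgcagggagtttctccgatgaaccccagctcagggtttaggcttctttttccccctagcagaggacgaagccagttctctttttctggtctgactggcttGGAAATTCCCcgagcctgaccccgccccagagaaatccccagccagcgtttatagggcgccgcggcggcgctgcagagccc

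The strongest VDR region of the set was assigned to IKBKG, at chrX:153769083-153770740 (hg19), with its summit 939 bp upstream of the transcript start in the peak file, which lies upstream of the start in the RNA tables, a fold enrichment of 43.9 and rank 207 of 9224. It was also called untreated. IKBKG RNA rose by 0.32 with vitamin D (adjusted p = 5.73e-05) in the authors' deposited table. IRAK2 had an intron region at chr3:10225629-10226383 (hg19) with a fold enrichment of 32.7, rank 389, and its RNA with vitamin D gave -0.09 (adjusted p = 0.241) in the authors' deposited table. RIPK2 had an intron region 20843 bp into the gene with a fold enrichment of 15.3. BIRC3 had 1 VDR region, 47349 bp upstream of its start, with a fold enrichment of 5.99 and rank 5805. NFKB1 had a region 71532 bp upstream with a fold enrichment of 11.9, where H3K27ac was 2.65-fold the untreated level with both (1.40 to 5.06), 1.28-fold with IL-13 (0.555 to 2.81) and 2.10-fold with vitamin D (1.10 to 4.03). With vitamin D, H3K27ac was 1.27-fold the untreated level at the NFKB1 region 386 bp upstream and 0.776-fold at the BIRC3 region. At the stronger IRAK2 region it rested on pileups of 8 with vitamin D and 7 untreated, and at the weaker one, 24884 bp into the gene, it was 0.812-fold.

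**Figure D4:**
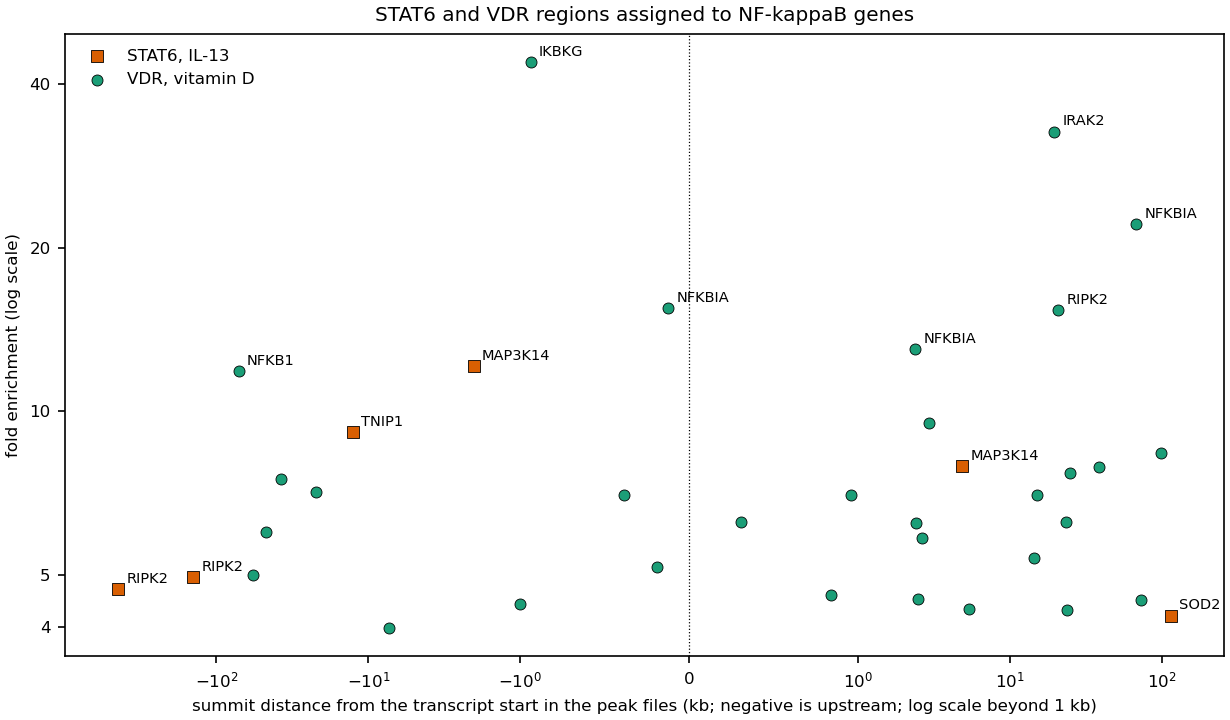
STAT6 regions with IL-13 (squares) and VDR regions with vitamin D (circles) assigned to NF-kappaB genes: distance of the summit from the transcript start in the peak files in kb (horizontal, log scale beyond 1 kb) against the authors' fold enrichment (vertical, log scale). IKBKG (43.9) and IRAK2 (32.7) have the strongest VDR regions and MAP3K14 (12.1) the strongest STAT6 region.

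With vitamin D, 7 of the 14 members with a VDR region rose and 3 fell in the authors' deposited table, and 3 of the 19 without one rose and 10 fell. Over all genes, 31.9% of 4495 with a region rose and 15.5% fell, and 11.4% of 10681 without one rose and 14.9% fell in the authors' deposited table. The 3 that fell with a region were NFKB1, BIRC3 and SOD2. By promoter motif, 1 of 10 members with a kappaB match rose with vitamin D (NFKBIA) and 6 fell, against 7 and 5 of 18 members without a match in the authors' deposited table. With both agents 2 of 10 rose and 6 fell among those with a match, and 3 and 6 of 18 among those without, in the authors' deposited table. With IL-13 1 of 10 rose and 4 fell with a match, and 3 and 7 of 18 without, in the authors' deposited table. All genes were not split by motif. Their shares higher and lower were 17.5% and 15.1% with vitamin D, 16% and 15.7% with both, and 12.3% and 14% with IL-13. CD83 and CFLAR, which rose with vitamin D in the authors' deposited table and are counted as without a match, held the broader consensus. The split by motif was chosen after the values were seen and was not tested.

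Histone marks at the members as a whole changed little. H3K27ac was present at all 34 genes in the 4 libraries, and the tallest summit per gene, divided by the library median, moved by at least 1.5-fold over untreated in at least 1 treated library for 5 of 34 members (15.1% of 15531 genes). MAP3K14 was 1.92-fold with both (1.17 to 3.14), 1.96-fold with IL-13 (1.19 to 3.23) and 1.30-fold with vitamin D (0.762 to 2.18). It was the only member whose counting interval over untreated left out 1. Its tallest pileups, 33 with both and 32 with IL-13, were also those read at its upstream STAT6 region, so these readings are not separate. IKBKG was 1.66-fold with both and 1.62-fold with vitamin D, NFKBIE was 1.63-fold with vitamin D, and NFKB2 and TRAF3 were lower with both. Over vitamin D alone, H3K27ac was at least 1.5-fold lower with both for 3 of 34 members (5.40% of all genes). It was that much higher for 0 (2.45%). NFKBIE was 0.436-fold there, on pileups of 9 with both and 25 with vitamin D. It was the only member whose counting interval in that comparison left out 1. H3K4me3, a promoter mark, passed 1.5-fold over untreated for 1 of 34 members (6.38% of 14858 genes), TNF, on pileups of 17 with vitamin D and 7 untreated. H3K9ac passed for 8 of 32 members (28.5% of 13381 genes), at a library median pileup of 10 in each of the 4 libraries, and no member's counting interval left out 1.

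Other genes of the pathway, taken from 4 lists of receptors, receptor adaptors, secreted targets and intracellular targets (74 of 76 in the tables), moved in both directions. With both, 16 of 69 tested rose and 21 fell, with IL-13 6 of 67 rose and 21 fell, and with vitamin D 18 of 66 rose and 20 fell in the authors' deposited table. The shares over all genes in the same order were 16% and 15.7%, 12.3% and 14%, and 17.5% and 15.1%. Their medians were -0.03, -0.09 and -0.01 on the log2 scale for both, IL-13 and vitamin D in the authors' deposited table. Among receptors, TLR5, the flagellin sensor, fell by 1.92 with both and by 1.32 with vitamin D in the authors' deposited table. IL18R1, a subunit of the IL-18 receptor, rose by 1.71 with both and by 1.83 with vitamin D in the authors' deposited table. Both genes were low. TLR5 had 0.320 RPKM with both, 0.895 with IL-13, 0.468 with vitamin D and 1.32 untreated. IL18R1 had 1.02, 0.309, 1.16 and 0.267 RPKM in the same order. The IL-1 receptor gene IL1R1 fell by 0.76 with IL-13 (adjusted p = 4.53e-16), and the TNF receptor gene TNFRSF1A rose by 0.70 with vitamin D in the authors' deposited table. Among adaptors, MALT1, the paracaspase, and MYD88, the adaptor of IL-1 and Toll-like receptors, fell by 0.45 and 0.29 with IL-13 in the authors' deposited table.

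Secreted targets also moved in both directions. IL1B, the interleukin-1 beta gene, had 160 RPKM with both, 64.9 with IL-13, 171 with vitamin D and 89.8 untreated; it rose by 0.98 with vitamin D (adjusted p = 7.84e-203) and fell by 0.48 with IL-13 (adjusted p = 2.52e-34) in the authors' deposited table. IL8, a neutrophil chemokine gene, had 5.07 RPKM with both, 9.31 with IL-13, 6.94 with vitamin D and 11.3 untreated, and fell by 1.12 with both (adjusted p = 3.38e-48) in the authors' deposited table. CSF3, the granulocyte growth factor gene, rose by 1.48 with both, and the chemokine gene CCL20 fell by 1.24 with both in the authors' deposited table, each at 3.1 RPKM or less. Of intracellular targets, IRF1, an interferon regulatory factor gene, rose by 0.44 with IL-13 (adjusted p = 5.89e-14), and JUNB, an AP-1 subunit gene, rose by 0.80 with vitamin D (adjusted p = 3.92e-86) in the authors' deposited table. ZC3H12A, which encodes the RNase Regnase-1, fell by 0.72 with both (adjusted p = 2.66e-27) in the authors' deposited table.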

How the data were processed

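The samples were 12 RNA sequencing and 16 ChIP-seq samples of EPC2 cells. Per the submitters' processing notes, the tools were MACS2, Bowtie, SAMtools, STAR and Trim Galore, and hg19 and GRCh37 the builds; no versions or settings are named. RPKM, log2 fold changes, p-values and adjusted p-values were deposited by the authors in 4 tables, and which test gave them is not stated in the labels or headers. An adjusted p of 1 was read as not tested. RPKM gives no depth, so the precision of single samples is unknown. The labels do not say that samples of a group were separate cultures, so any spread between samples behind the p-values may be technical. The table named for IL-13 against both holds vitamin D against both: its RPKM column equals the vitamin D values for 23533 of 23533 genes (tolerance 1e-6), and across 10903 genes its fold changes had a correlation of 0.995 with the RPKM ratio over vitamin D, against -0.01 for the ratio over IL-13. It was used as vitamin D against both.

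Standard errors were computed as the size of a deposited log2 change divided by the normal quantile of its p-value. Both against IL-13 was the difference of 2 deposited fold changes, with their variances added, an upper bound since they share the untreated samples. The difference of IL-13 effects came from 2 tables that share no sample. Both were z tests with Benjamini-Hochberg adjustment at 0.05 over 14734 genes, after leaving out 11 genes whose tables disagreed by over 0.5 (log2); the z tests were tested on simulated data.

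The ChIP files give, per the file headers, a pileup signal, a fold enrichment ratio, -log10 p and -log10 q for each summit, deposited by the authors with 1 list per library, and no header says whether a control library was used. Summits were grouped into regions by shared start and end, and the authors' gene assignment was used. Lines without a position label or an assigned gene were left out, from 0 to 51 per list. The vitamin D VDR library held 0.0955% whole-number pileups. Histone summits were scaled by the library median over genes marked in all 4 libraries. Intervals are exact binomial (95%) and cover counting error only. Promoters came from RefSeq (GRCh38.p14), and no coordinates were converted.

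The members and lists were chosen with earlier results of these data known. All 34 members were named where a value was at hand, and up to 3 called genes per pathway list and comparison by size. Alternatives were a stricter adjusted p, a minimum of 1 RPKM, RPKM ratios with pseudocounts of 0.1 and 1, another variance, other peak filters and windows, and other histone summaries. Python 3.11.15, pandas 2.3.3, NumPy 2.4.6, SciPy 1.17.1 and matplotlib 3.10.9 were used. Some values are not reported here.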

Additional observations from a re-analysis of the deposited data

Results flagged for a closer look

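None of the 33 members passed the test of the difference between the IL-13 effect with vitamin D and that without it, but 8 of 64 other genes tested from the pathway lists did, beside 2.42% of all genes, by the z test on the authors' deposited fold changes with Benjamini-Hochberg adjustment over 14734 genes. Differences are the effect with vitamin D minus that without it, and each p comes from that test. TNFRSF11A, the gene of the RANK receptor, had a difference of 0.91 ± 0.22 (log2, SE; adjusted p = 0.00283 from the authors' deposited values), at 1.17 RPKM with both, 0.365 with IL-13, 0.848 with vitamin D and 0.593 untreated. IL1R1 differed by 0.47 (adjusted p = 0.0133), TNFSF10, the gene of the death ligand TRAIL, by 0.45 (adjusted p = 2.93e-08), IL36G by 0.39 (adjusted p = 0.0132), IL1B by 0.35 (adjusted p = 2.35e-07) and TNFRSF21 by 0.23 (adjusted p = 0.000462), from the authors' deposited values. JUNB differed by -0.26 (adjusted p = 0.00551) and the stress gene GADD45B by -0.32 (adjusted p = 0.00363), from the authors' deposited values. Groups of 1 value could not be searched for samples that stand apart.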

How the results depend on the processing

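Counts of called members, both directions summed, stayed within 1.5 times their value in all 6 comparisons under each alternative run. By direction, at an adjusted p under 0.01 higher calls numbered 6 in place of 10 with vitamin D and 3 in place of 5 for both over IL-13, and lower calls 9 in place of 14 for both over vitamin D. At an adjusted p under 0.01, 21 calls were lost among the 198 results of 1 member in 1 comparison, NFKBIA with IL-13 among them. With a minimum of 1 RPKM, BIRC2 with both was gained (adjusted p = 0.0441, the authors' p-values adjusted again). The variance derived from 4 tables gave 19 members in place of 15 for both over IL-13. No called member changed direction in the RPKM ratio at either pseudocount. STAT6 counts depended on the rule: 1 member at a fold enrichment of at least 10, 2 with regions in the gene or within 10 kb and 7 within 50 kb, in place of 4. VDR counts were 5 at a fold enrichment of at least 10, in place of 15. Shares over all genes were not taken under these peak rules. With summed summit pileups 19 members passed 1.5-fold for H3K27ac (51.3% of all genes), 21 for H3K9ac (67.0%) and 19 for H3K4me3 (42.4%). At 2-fold over untreated, 0 passed for H3K27ac (1.71% of all genes), 2 for H3K9ac (4.45%) and 0 for H3K4me3 (0.861%). The cause was not tested. With the vitamin D library in place of untreated, a choice made after seeing the data, 5 members passed for H3K27ac (15.2% of all genes), MAP3K14 among them. No paired analysis was possible because the RNA tables hold 1 value per group, and leaving out single samples was not possible for the same reason. With 1 ChIP library per condition there is no replicate check, and RPKM hides the depth.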
